A study of Arabidopsis thaliana with 18 samples.

Results

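Transcript levels of 10 marker genes of the salicylic acid (SA) pathway and of leaf senescence are described here in Arabidopsis thaliana shoots of 3 genotypes, each without treatment and after a single far-red-enriched photoperiod (FRP). The genes were picked by their locus identifiers and not by a threshold on any value. They are ICS1 (AT1G74710), EDS1 (AT3G48090), PAD4 (AT3G52430), WRKY70 (AT3G56400), NIMIN1 (AT1G02450), PR1 (AT2G14610), PR2 (AT3G57260), PR5 (AT1G75040), SAG12 (AT5G45890) and SAG13 (AT2G29350). All 10 were found among the 37336 genes counted and all 10 passed the filter on low counts. The list was drawn up with earlier results of these data known, and which values bore on it is not recorded. The members' own values are therefore given as a description, with no test, and tests are given only for other genes of the same pathways.

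RNA was sequenced from Col-0 shoot apices of the wild type, the florigen mutant ft-10 and the terminal flower mutant tfl1-1, called ft and tfl1 here. Plants 42 days old, kept in short days, received either no treatment or 24 h of FRP, a long photoperiod rich in far-red light that induces the florigen gene FT in leaves. FRP began at the end of the short day, and untreated plants stayed in short days, with their dark period, for the same 24 h. Treated and untreated plants thus differed in photoperiod, light intensity and spectrum together. Each of the 6 conditions had 3 biological replicates, which gives 18 libraries, and the labels mark 12 of them, 2 per condition, as analysed for differential expression. The authors picked these 2 per condition after a principal component analysis, so the choice followed the expression values. The common coefficient of variation between replicates in edgeR was 0.074 in the 12 and 0.161 in all 18. Standard errors and adjusted p from the 12 do not carry the spread of the other libraries. Each replicate was a pool of inflorescence shoots from which all leaves and roots had been taken, so neither single plants nor single cell types were resolved. ft-10 carries an insertion and is a null allele, and tfl1-1 is a severe allele, both present in all cells.

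Salicylic acid is a plant hormone of immunity to biotrophic pathogens. Most of it is made from chorismate in the plastid by isochorismate synthase, and its synthesis is raised by complexes of the lipase-like proteins EDS1 and PAD4. It is sensed by NPR receptors, which act through TGA and WRKY transcription factors to switch on PATHOGENESIS-RELATED (PR) genes for secreted antimicrobial proteins. SA also builds up in ageing leaves, where SENESCENCE-ASSOCIATED GENES (SAG) are switched on while cell contents are broken down and exported.

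Among the 250 bases before the annotated start of each of the 10 genes, 3 short motifs were searched on both strands, namely the W-box bound by WRKY proteins (TTGACC or TTGACT), the core bound by TGA factors (TGACG) and the G-box bound by bZIP and bHLH factors (CACGTG). The W-box was found before 2 of 10 members, PR5 and EDS1, against 28.4% of all 27431 windows of the same length. The TGA core was found before 1 member, WRKY70, against 18.6% of windows, and the G-box before 1 member, PR2 at 131 bases before the start, against 6.49%. A match is only a description of letters in this window. The windows of WRKY70, EDS1 and PR5 are shown because they hold the matches to the motifs of WRKY and TGA factors, which act in the SA pathway. Capitals mark the motif, written 5′ to 3′ along the gene's strand, in the TAIR10.1 sequence of RefSeq. The WRKY70 window is chr3:20910624-20910873 on the minus strand with 2 TGA cores starting 76 and 61 bases before the start, both read on the opposite strand. The EDS1 window is chr3:17758148-17758397 on the minus strand with a W-box 97 bases before the start. It is read on the opposite strand, so TTGACT appears as AGTCAA. The PR5 window is chr1:28177420-28177669 on the plus strand with a W-box 166 bases before the start, also read on the opposite strand as AGTCAA. No 2 matches overlapped.
WRKY70: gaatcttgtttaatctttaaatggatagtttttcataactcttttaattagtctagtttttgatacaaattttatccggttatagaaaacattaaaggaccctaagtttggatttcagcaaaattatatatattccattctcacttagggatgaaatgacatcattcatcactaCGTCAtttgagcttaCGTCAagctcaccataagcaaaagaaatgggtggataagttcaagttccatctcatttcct
EDS1: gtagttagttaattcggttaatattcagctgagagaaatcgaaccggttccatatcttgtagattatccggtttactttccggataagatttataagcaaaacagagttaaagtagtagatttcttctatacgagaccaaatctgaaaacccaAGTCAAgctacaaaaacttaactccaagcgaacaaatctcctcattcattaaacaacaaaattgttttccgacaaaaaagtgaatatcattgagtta
PR5: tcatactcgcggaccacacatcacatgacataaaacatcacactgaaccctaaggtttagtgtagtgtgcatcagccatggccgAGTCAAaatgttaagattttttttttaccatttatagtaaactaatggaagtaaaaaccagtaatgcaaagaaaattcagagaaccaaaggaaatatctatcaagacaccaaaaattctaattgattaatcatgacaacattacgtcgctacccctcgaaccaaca

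Counts on genes summed to 20470477 to 35851716 per library (median 30942643.5). FT, the gene disrupted in ft-10, had 11 to 36 counts in the 6 ft libraries and 0 to 3 counts in the 12 others, and TFL1 had 172 to 1647 counts in the tfl1 libraries, so neither count shows the loss of the protein. One library stood furthest apart. Replicate 1 of the untreated wild type correlated at 0.936 (Spearman, all tested genes) with its closest library of the same condition and at 0.979 with an untreated ft library, while every other library reached at least 0.993 within its own condition. It is not among the 12 libraries. Replicate 2 of treated tfl1, also outside the 12, had that lowest value of 0.993, beside 0.990 with a treated wild-type library. Chi-square per degree of freedom on raw counts was 73.4 and 28.5 between it and replicates 1 and 3 of its condition, and 11.7 between those. For replicate 1 of the untreated wild type the values were 125 and 116 against replicates 2 and 3, and 10.6 between those. Levels are in CPM (counts-per-million after TMM scaling). Marker genes of floral organs (4 genes, a summed level of at most 0.993 CPM) and of roots (5 genes, at most 4.01, with RHD6 at 0 in all 18 libraries) were near absent. The 5 shoot meristem markers summed to 205 to 247 CPM in the untreated wild type and 419 to 513 after FRP, to 249 to 263 and then 438 to 513 in tfl1, and to 208 to 215 and then 402 to 421 in ft. The 5 mesophyll markers, genes of photosynthesis, summed to 3289 to 4999 in the untreated wild type and 1134 to 1828 after FRP, to 3987 to 4353 and then 1325 to 1517 in tfl1, and to 4127 to 4333 and then 3087 to 3402 in ft. The sums of meristem markers were thus higher and those of green tissue markers lower after FRP in all 3 genotypes, and their part in the results on the members was not tested. Within the meristem set CLV3 went the other way in the wild type, with 34 counts over the untreated libraries and 7 over the treated ones. Its ratio of untreated to treated was 5.40 (95% interval 2.36 to 14.4, covering counting error only). In tissue pools like these, fewer cells of a type and less RNA per cell cannot be told apart.

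CPM are given in replicates 1, 2 and 3 in that order, and differences as log2 fold changes from edgeR fitted to the 12 libraries. Their standard error (SE) was derived as the absolute log2 fold change divided by the square root of edgeR's quasi-likelihood F statistic. Per kilobase of transcript, the mean level over all 18 libraries was highest for WRKY70 (101 CPM per kb), followed by PR5 (30.3), EDS1 (17.1), NIMIN1 (16.4), PAD4 (14.8), PR2 (12.6), PR1 (10.7), ICS1 (6.12), SAG12 (1.99) and SAG13 (1.27). The members split by how far they ranged. PR1 ran from 0.239 to 38.8 CPM, a ratio of 162 between the highest and lowest library, while PR5 spanned a ratio of 4.0 and ICS1 one of 5.15.

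**Figure D1:**
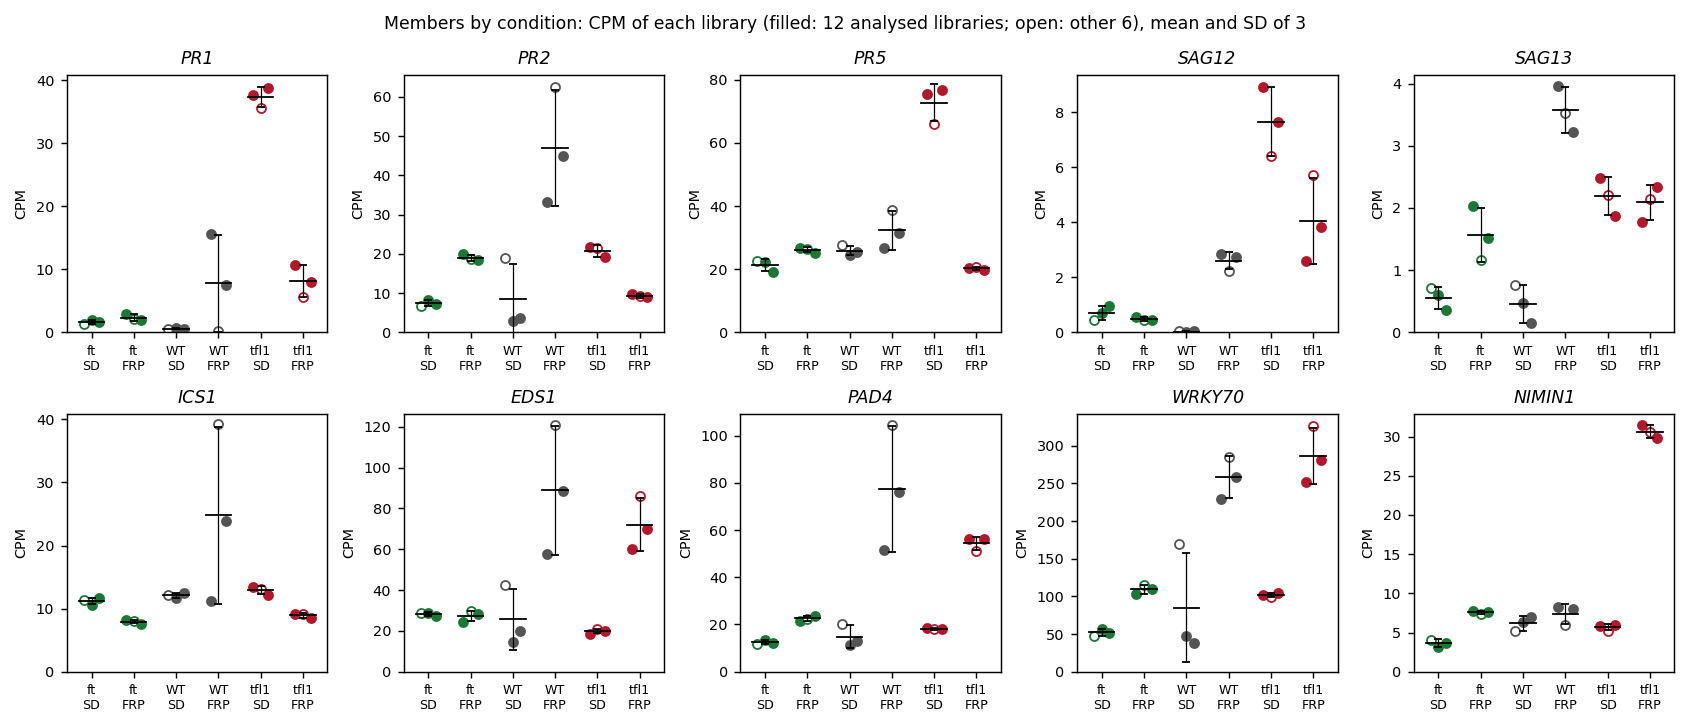
CPM (linear axis from 0) of each of the 10 genes in the 3 libraries of each condition, with filled points for the 12 analysed libraries, open points for the 6 others, and bars for the mean and SD of 3 (cut at 0 where the SD exceeds the mean). PR1, PR5 and SAG12 peak in untreated tfl1, WRKY70 and NIMIN1 in treated tfl1, and the other 5 have their highest mean in the treated wild type.

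FRP was followed by a different set of higher and lower members in each genotype. In the wild type, 6 of 10 members had all 3 treated libraries above all 3 untreated ones (PR2, SAG12, SAG13, PAD4, EDS1 and WRKY70) and none had all below. Over 21442 genes, 30.6% lay wholly higher and 31.6% wholly lower by that measure. In tfl1, PAD4, EDS1, WRKY70 and NIMIN1 were wholly higher and PR1, PR2, PR5, SAG12 and ICS1 wholly lower, 4 and 5 of 10, against 36.0% and 34.7% of all genes. In ft, 7 were wholly higher (PR1, PR2, PR5, SAG13, PAD4, WRKY70 and NIMIN1) and ICS1 alone was wholly lower, against 28.5% and 30.2%. PAD4 and WRKY70 were the members wholly higher after FRP in all 3 genotypes. The median log2 fold change of the 10 was 2.45 (wild type), -0.31 (tfl1) and 0.64 (ft), beside -0.02, 0.02 and -0.01 over all genes tested.

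ICS1, the isochorismate synthase that makes most pathogen-induced SA, stayed within a narrow band outside the treated wild type. In the wild type it had 12.2, 11.6 and 12.5 CPM untreated and 11.2, 39.3 and 23.9 CPM after FRP. The values of tfl1 were 13.4, 13.1 and 12.2 CPM untreated and 9.11, 9.18 and 8.52 after FRP. Those of ft were 11.3, 10.6 and 11.6 CPM untreated and 8.20, 8.02 and 7.63 after FRP. Both mutants were lower after FRP without overlap, with log2 fold changes of -0.53 ± 0.25 in tfl1 and -0.49 ± 0.26 in ft. The treated wild-type libraries spread around the untreated ones, one below and a pair above, so its log2 fold change of 0.56 ± 0.25 rests mainly on replicate 3 and was -0.10 without that library.

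EDS1 and PAD4, lipase-like partners that relay signals of immune receptors and raise SA synthesis, were higher after FRP in tfl1 and the wild type. EDS1 had 42.5, 14.6 and 19.9 CPM in the untreated wild type and 57.7, 121 and 88.3 after FRP. In tfl1 it had 18.7, 20.7 and 19.8 CPM untreated and 60.1, 86.2 and 70.1 after FRP. In ft it had 28.9, 28.8 and 27.1 CPM untreated and 24.6, 29.5 and 28.0 after FRP. The treated and untreated libraries of ft overlapped, while those of the other genotypes did not. The log2 fold changes of EDS1 were 2.09 ± 0.19 (wild type), 1.76 ± 0.18 (tfl1) and -0.09 ± 0.18 (ft). Removing a trend with transcript length brought the wild-type value to 1.42 and that of tfl1 also to 1.42. That trend differed between conditions. Relative to each gene's mean, log2 CPM changed by -0.35 and -0.37 per doubling of length in the analysed untreated wild-type libraries, and by 0.29 and 0.29 in the treated ones. The slopes were -0.25 and -0.16 untreated and 0.05 and 0.16 treated in tfl1, and 0.04 and 0.006 untreated and -0.21 and -0.09 treated in ft.

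PAD4 had 20.3, 11.2 and 13.1 CPM in the untreated wild type and 51.4, 105 and 76.3 after FRP. In tfl1 it had 18.7, 17.954 and 17.949 CPM untreated and 56.0, 51.3 and 56.1 after FRP. In ft the values were 11.7, 13.4 and 12.2 CPM untreated and 21.5, 22.4 and 23.8 after FRP. PAD4 differed from EDS1 in ft, where its treated libraries were all above the untreated ones. Its log2 fold changes were 2.40 ± 0.16 (wild type), 1.61 ± 0.15 (tfl1) and 0.82 ± 0.16 (ft). With the length trend removed they were 1.96, 1.42 and 0.95. The order of the conditions was the same at the top for both genes, with the treated wild type and treated tfl1 highest and overlapping each other.

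WRKY70, a transcription factor that favours SA over jasmonate responses and delays senescence, was the most abundant member per kilobase in every condition. It had 169, 47.9 and 38.5 CPM in the untreated wild type and 229.7, 286 and 259 after FRP. In tfl1 it had 102, 99.4 and 105 CPM untreated and 252, 327 and 281 after FRP. In ft it had 47.4, 56.9 and 52.0 CPM untreated and 103, 115 and 109.6 after FRP. No treated library overlapped the untreated ones of its genotype. The log2 fold changes were 2.4995 ± 0.11 (wild type), 1.37 ± 0.10 (tfl1) and 0.97 ± 0.10 (ft). Replicate 1 of the untreated wild type lay far above the other untreated wild-type libraries, and with all 18 libraries the wild-type value was 1.60. Its untreated level in tfl1 was 2.38-fold that of the wild type in the 12 libraries (log2 1.25 ± 0.10) and the log2 value was 0.26 with all 18.

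NIMIN1 binds NPR1 and restrains its action on PR genes. Treated tfl1 was the high condition, with 31.5, 30.6 and 29.8 CPM beside 5.85, 5.21 and 6.005 untreated. In ft it had 4.08, 3.17 and 3.72 CPM untreated and 7.77, 7.39 and 7.57 after FRP. Wild-type levels were 5.16, 6.39 and 7.01 CPM untreated and 8.20, 5.92 and 8.03 after FRP, with overlap. The log2 fold change was 2.37 ± 0.09 in tfl1, 1.15 ± 0.11 in ft and 0.28 ± 0.10 in the wild type, the last of these being 0.92 once the length trend was removed. NIMIN1 was the member with the shortest transcript (623 bases).

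PR1, a secreted protein and the usual readout of SA signalling, was highest in untreated tfl1. There it had 37.7, 35.6 and 38.8 CPM, against 0.573, 0.697 and 0.477 in the untreated wild type and 1.30, 1.95 and 1.63 in untreated ft. After FRP it had 10.7, 5.58 and 8.00 CPM in tfl1, every library below the untreated ones. The treated wild type had 15.7, 0.239 and 7.53 CPM, from 380, 5 and 227 counts. Replicate 2 of the treated wild type was therefore the lowest of all 18 libraries for PR1, and replicates 1 and 3 lay above every untreated wild-type library. In treated ft PR1 had 2.96, 2.09 and 1.96 CPM, each above the highest untreated library, replicate 3 only just. The log2 fold change was -2.03 ± 0.25 in tfl1, 4.25 ± 0.44 in the wild type, where replicate 2 is not among the 12 libraries, and 0.46 ± 0.40 in ft. With all 18 libraries the wild-type value was 3.73.

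PR2 encodes a secreted beta-1,3-glucanase that attacks fungal cell walls. In the wild type it had 18.9, 2.79 and 3.58 CPM untreated and 33.3, 62.5 and 45.0 after FRP. In tfl1 it had 21.9, 21.5 and 19.1 CPM untreated and 9.87, 9.21 and 8.97 after FRP. In ft it had 6.68, 8.36 and 7.34 CPM untreated and 19.9, 18.6 and 18.4 after FRP. The 3 genotypes thus ran in different directions without overlap, higher in the wild type (log2 fold change 3.64 ± 0.18) and in ft (1.28 ± 0.15) and lower in tfl1 (-1.12 ± 0.15). Replicate 1 of the untreated wild type lay far above the other untreated wild-type libraries, and the wild-type value was 2.49 with it and 3.89 with the 17 other libraries.

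PR5, a thaumatin-like protein, had 75.4, 66.0 and 76.9 CPM in untreated tfl1 and 20.2, 20.8 and 19.9 after FRP. Wild-type libraries had 27.6, 24.7 and 25.5 CPM untreated and 26.8, 38.9 and 31.4 after FRP, with overlap. In ft it had 22.5, 22.2 and 19.2 CPM untreated and 26.8, 26.3 and 25.3 after FRP. Untreated tfl1 stood above all 15 other libraries. The log2 fold change of PR5 was -1.92 ± 0.09 in tfl1, 0.22 ± 0.09 in the wild type and 0.33 ± 0.09 in ft. With the length trend removed these were -1.67, 0.63 and 0.14.

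SAG12, a cysteine protease switched on late in leaf senescence, was close to absent in the untreated wild type, with 1, 0 and 1 counts. It had 2.84, 2.24 and 2.75 CPM in the treated wild type. Over the summed counts of 2 and 199, the ratio of treated to untreated was 89.4 (95% interval 24.4 to 744, covering counting error only). Untreated tfl1 had 8.93, 6.42 and 7.65 CPM and treated tfl1 2.60, 5.72 and 3.83, all below the untreated ones (log2 fold change -1.37 ± 0.20). In ft the values were 0.454, 0.694 and 0.963 CPM untreated and 0.575, 0.449 and 0.468 after FRP, and they overlapped. The untreated ratio to the wild type was 261 (72.0 to 2159) for tfl1 and 23.8 (6.31 to 200.4) for ft.

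SAG13, a short-chain dehydrogenase induced early in senescence and during cell death, was the least abundant member per kilobase over the 18 libraries, and SAG12 was below it in both wild-type conditions and in treated ft. Its wild-type levels were 0.764, 0.465 and 0.143 CPM untreated and 3.96, 3.53 and 3.22 after FRP. In ft it had 0.713, 0.595 and 0.365 CPM untreated and 2.03, 1.17 and 1.52 after FRP. In tfl1 it had 2.48, 2.22 and 1.87 CPM untreated and 1.78, 2.14 and 2.34 after FRP, the only genotype with overlap. The log2 fold changes were 3.47 ± 0.39 (wild type), 1.87 ± 0.36 (ft) and -0.09 ± 0.27 (tfl1). The wild-type value rests on 12 and 3 counts in the analysed untreated libraries and was 4.60 without replicate 2 and 2.93 without replicate 3 of them.

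**Figure D2:**
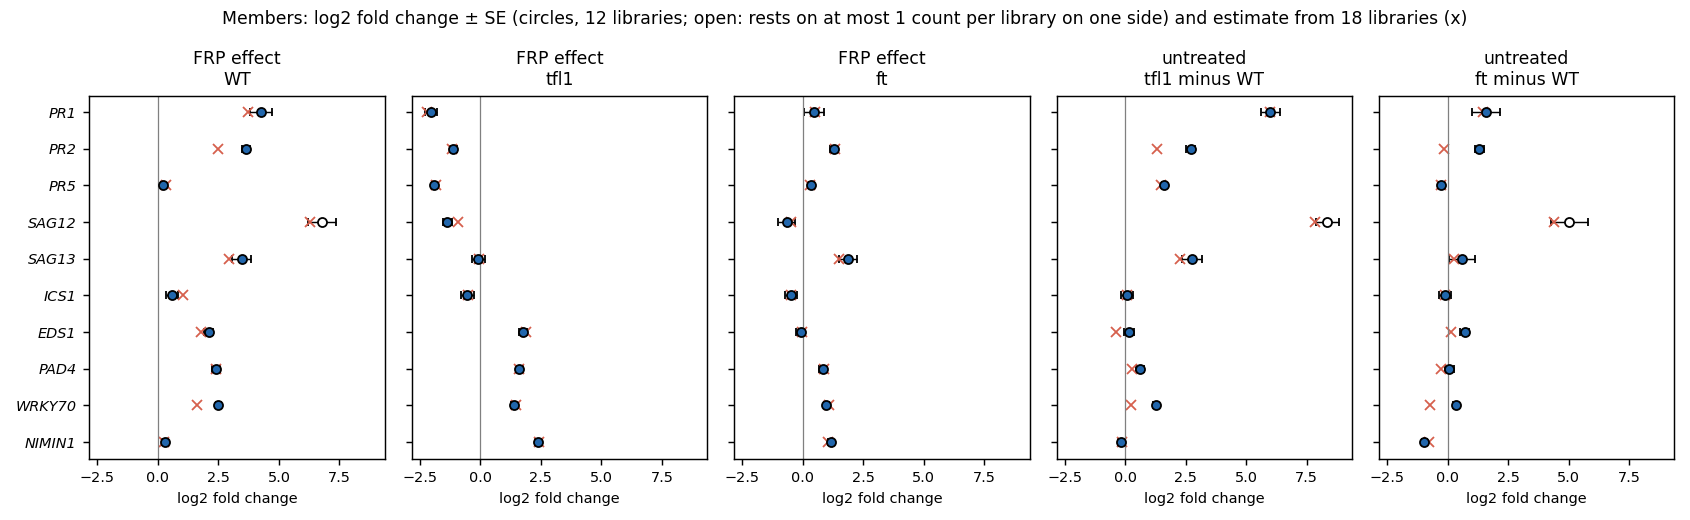
Log2 fold change of the 10 genes for FRP in each genotype and for each untreated mutant against the untreated wild type, with circles and SE bars from the 12 libraries, crosses from all 18, and open circles where one side holds at most 1 count per library. PR1 sits at 4.25 (wild type) and -2.03 (tfl1), and the crosses of PR2 and WRKY70 lie to the left of their circles wherever the untreated wild type enters.

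Without treatment the genotypes already differed. PR1, PR2, PR5, SAG12 and SAG13 had all 3 untreated tfl1 libraries above all 3 untreated wild-type ones, 5 of 10 members, and none lay wholly below, where 14.7% and 14.0% of all genes did. These 5 are the secreted PR proteins and the senescence markers, while ICS1, EDS1, PAD4, WRKY70 and NIMIN1 overlapped between the genotypes. The log2 differences of the first group were 5.99 ± 0.40 for PR1, 2.70 ± 0.18 for PR2, 1.60 ± 0.09 for PR5 and 2.76 ± 0.41 for SAG13, the last being 3.89 or 2.22 without replicate 2 or 3 of the untreated wild type. The value of PR2 was 1.32 when all 18 libraries were fitted. Between untreated ft and the wild type, PR1 and SAG12 were wholly higher and PR5 and NIMIN1 wholly lower, 2 and 2 of 10, against 8.56% and 8.90% of all genes. PR1 was higher by 1.58 ± 0.58 and NIMIN1 lower at -0.96 ± 0.11 on the log2 scale. Both comparisons share the untreated wild type.

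For each member the conditions could be ordered by their mean. PR1 ran from the untreated wild type (0.582 ± 0.110 CPM, SD, n = 3) through untreated ft (1.62 ± 0.327), treated ft (2.34 ± 0.545), the treated wild type (7.81 ± 7.71) and treated tfl1 (8.09 ± 2.56) to untreated tfl1 (37.4 ± 1.58). The treated wild type overlapped its neighbours on both sides in that order, and the other neighbouring pairs did not overlap. SAG12 had the same bottom and top, with the treated wild type (2.61 ± 0.323) and treated tfl1 (4.05 ± 1.57) next to the top and overlapping. NIMIN1 had a single separate condition at the top, treated tfl1 (30.6 ± 0.859), above treated ft (7.58 ± 0.192). EDS1 fell into 2 separate sets, treated wild type (89.0 ± 31.6) and treated tfl1 (72.1 ± 13.2) above the other 4 conditions, whose neighbours overlapped between 19.7 ± 1.00 and 28.3 ± 1.04.

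Over the 18 libraries SAG12 was the member ranked most like PR1 (Spearman rho 0.825), followed by SAG13 (0.560) and PR2 (0.426), and ICS1 (-0.09) and EDS1 (-0.10) were the least like it. Of all other genes tested, AAH (AT4G20070, allantoate amidohydrolase, rho 0.909), AGAL1 (AT5G08380, an alpha-galactosidase, 0.886), AT2G41090 (0.870), C4H (AT2G30490, cinnamate 4-hydroxylase, 0.866) and AT1G62870 (0.851) were closest. These are ranks over libraries that share conditions and depth. The likeness was in order and not in size, since AGAL1 had condition means from 51.8 to 61.3 CPM.

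The rest of the SA pathway was tested on 52 other genes from 3 lists, synthesis and turnover, signalling, and response, of which 48 passed the filter. By edgeR's quasi-likelihood test at an adjusted p of at most 0.005, 29 of the 48 rose and 6 fell in the wild type, 24 rose and 6 fell in tfl1, and 10 rose and 8 fell in ft. Of all 21277 genes, rises and falls made up 33.0% and 33.4% (wild type), 24.6% and 21.5% (tfl1), and 12.8% and 12.6% (ft), or 66.3%, 46.1% and 25.4% in either direction. The median log2 fold change of the 48 was 0.71, 0.46 and 0.06 in the wild type, tfl1 and ft. With all 18 libraries 20, 18 and 4 genes rose in those genotypes, and with the 17 libraries that leave out replicate 1 of the untreated wild type 29, 25 and 9. The 10 rises in ft were 5 without replicate 2 of the untreated group, 4 without its replicate 3 and 6 without replicate 3 of the treated group. The 8 falls in ft were 4, 4 and 5 without replicate 1 of treated ft and without replicates 2 and 3 of untreated ft, and the 6 falls in tfl1 were 10 without either analysed library of the treated wild type.

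Of 16 tested genes of synthesis and turnover, rises and falls numbered 8 and 2 (wild type), 5 and 3 (tfl1), and 2 and 2 (ft), beside the shares of all genes just given. SARD1, a transcription factor that activates ICS1, rose in all 3 genotypes, with log2 fold changes of 4.50 ± 0.14 for the wild type (edgeR adjusted p = 7.71e-10), 2.40 ± 0.11 for tfl1 (2.58e-08) and 0.93 ± 0.12 for ft (0.00013). Fitted to all 18 libraries, the wild-type value was 2.58 (adjusted p = 0.00201), near that of tfl1 (2.57), and the change in ft missed the threshold (adjusted p = 0.267). In the 12 libraries with the length trend removed, SARD1 was at 3.95, 2.14 and 1.08 in the wild type, tfl1 and ft. CBP60G, its close relative, rose by 3.96 ± 0.21 in the wild type (adjusted p = 3.2e-08) and by 1.63 ± 0.18 in tfl1 (1.38e-05) and was at 0.32 in ft (0.224). With 18 libraries its values were 1.49 (edgeR adjusted p = 0.0791) in the wild type and 1.93 (0.0372) in tfl1, neither past the threshold. DLO1, an SA 3-hydroxylase that removes the hormone, rose by 5.09 ± 0.83 in the wild type, from 0.153 ± 0.116 to 4.62 ± 3.26 CPM (SD, n = 3), and by 3.96 without replicate 3 of the treated group. EPS1, which completes SA synthesis, rose by 0.52 ± 0.09 in ft. ICS2, the second isochorismate synthase, fell in all 3 genotypes at -1.57 ± 0.16, -1.56 ± 0.15 and -1.33 ± 0.15 in the wild type, tfl1 and ft. PAL4 (-1.10 ± 0.14 in the wild type) and PAL1 (-0.84 ± 0.13 in ft), of the phenylalanine ammonia-lyase route, and UGT74F2 (-1.36 ± 0.22 in tfl1), an SA glucosyltransferase, fell too.

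Among 25 signalling genes, rises and falls numbered 18 and 3 (wild type), 16 and 2 (tfl1), and 6 and 5 (ft). The shares of all genes were 33.0% and 33.4%, 24.6% and 21.5%, and 12.8% and 12.6% in those genotypes. WRKY62 rose by 3.03 ± 0.60 in the wild type (adjusted p = 0.000616, not past the threshold without replicate 2 of the untreated group, at 2.47) and by 4.12 ± 0.47 in tfl1 (1.63e-05). WRKY38, which acts with WRKY62 to restrain defence, rose by 2.83 ± 0.18 in tfl1 (2.44e-07) and 1.88 ± 0.22 in ft (5.47e-05). ADR1, a helper receptor of the EDS1 and PAD4 branch, rose by 2.85 ± 0.12 in the wild type, and by 1.93 with the length trend removed. Its value was 1.91 with all 18 libraries, whose 3 untreated and 3 treated wild-type ones averaged 16.7 ± 14.5 and 62.3 ± 5.51 CPM. WRKY40 rose by 1.78 ± 0.38 in ft (edgeR adjusted p = 0.00298, and 0.221 with all 18 libraries). In the wild type WRKY40 had 234, 1.51 and 1.38 CPM untreated and 62.3, 126 and 90.9 after FRP. That overlap, from replicate 1 of the untreated group, kept it from being named there. For NPR3, NDR1, WRKY33 and WRKY46, among others, that replicate also overlapped the treated wild-type libraries. NPR3 had 183, 34.5 and 29.3 CPM untreated and 119, 163 and 145 after FRP. TGA3 fell in every genotype at -0.48 ± 0.07, -0.74 ± 0.07 and -1.06 ± 0.07 in the wild type, tfl1 and ft. NPR4, an SA receptor that represses transcription, fell in the wild type (-0.41 ± 0.09), AT5G66900 in tfl1 (-0.44 ± 0.09, edgeR adjusted p 0.00716 with 18 libraries) and TGA4 in ft (-0.59 ± 0.09, adjusted p 0.000352, and 0.014 with 18 libraries). NPR4 was also lower in treated ft, at 22.2, 21.9 and 21.5 CPM after 27.9, 27.8 and 26.7 untreated. TGA4 went the other way in tfl1, with 55.0, 54.8 and 59.6 CPM untreated and 85.1, 97.1 and 86.6 after FRP. Only the largest changes of each genotype are named, so a gene named in one genotype can also change in another.

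Of 7 tested response genes, 3 rose and 1 fell both in tfl1 and in the wild type, while ft had 2 rises and 1 fall. Rises and falls over all genes were 24.6% and 21.5% (tfl1), 33.0% and 33.4% (wild type), and 12.8% and 12.6% (ft). GRX480, a glutaredoxin that binds TGA factors, rose by 3.59 ± 0.23, 2.23 ± 0.18 and 2.37 ± 0.20 in the wild type, tfl1 and ft. These values were 2.25, 2.27 and 2.04 with all 18 libraries. WAK1, a wall-associated kinase, rose by 1.79 ± 0.09 in tfl1 and by 0.49 ± 0.09 in ft, the latter not past the threshold with 18 libraries (edgeR adjusted p = 0.0756). The wild-type response of WAK1 was larger than both, with differences of 2.22 for the wild type minus ft and -0.92 for tfl1 minus the wild type. PNP-A rose by 2.92 ± 0.74 in the wild type, with a wide spread among treated libraries (11.8 ± 10.9 CPM), and did not pass the threshold with the length trend removed (edgeR adjusted p = 0.00559). Its value was 3.74 with all 18 libraries and 0.82, not past the threshold, without replicate 3 of the treated group. PCC1 fell by 2.44 on the log2 scale in the wild type (SE 0.18). ACD6, an ankyrin-repeat regulator of SA-dependent defence, was at -2.89 ± 0.19 in ft.

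**Figure D3:**
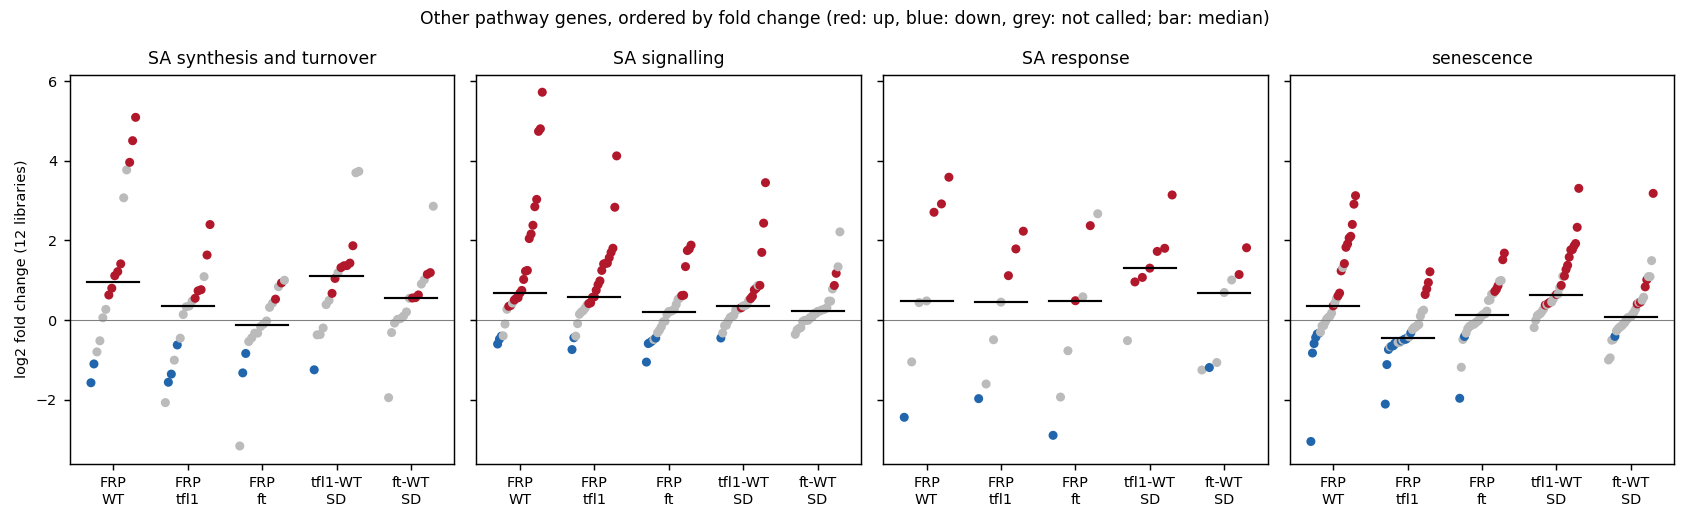
Log2 fold changes (12 libraries) of the other tested genes of the 3 SA lists and of senescence, ordered within each comparison, with red for a rise and blue for a fall past an adjusted p of 0.005, grey for neither, and a bar at the median. The signalling panel holds 18 (wild type), 16 (tfl1) and 6 (ft) red points of 25 for FRP, beside rises of 33.0%, 24.6% and 12.8% of all genes.

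Senescence genes other than the members were counted over 29 tested genes of 30 listed. Rises numbered 12 and falls 6 in the wild type, while in tfl1 4 rose and 12 fell, and in ft 5 rose and 2 fell. As shares of the 29 these are 41.4% and 20.7%, 13.8% and 41.4%, and 17.2% and 6.90%, beside 33.0% and 33.4%, 24.6% and 21.5%, and 12.8% and 12.6% of all genes. NAC016 and NAP, NAC transcription factors that promote leaf senescence, rose in the wild type by 3.12 ± 0.30 and 1.91 ± 0.23, NAC016 also rose in tfl1 by 0.94 ± 0.23 (edgeR adjusted p = 0.00345, and 0.0452 with 18 libraries), and NAP in ft by 1.68 ± 0.20. The wild-type value of NAP was 1.30 with all 18 libraries. WRKY53, an early senescence regulator, rose by 1.21 ± 0.28 in tfl1 (adjusted p = 0.00233, and 0.0895 with 18 libraries). XTH24 rose by 1.52 ± 0.22 in ft. SEN1, a gene induced by darkness, fell in the wild type (-3.05 ± 0.48) and tfl1 (-2.11 ± 0.37), RNS2, a ribonuclease, in the wild type (-0.83 ± 0.08), and SAG14 in tfl1 (-1.12 ± 0.22) and ft (-1.96 ± 0.24). SAG14 rose in the wild type (2.06 ± 0.28), and with 18 libraries none of its 3 changes was past the threshold (edgeR adjusted p of 0.109 for the wild type, 0.0378 for tfl1 and 0.0126 for ft). The wild-type value of SEN1 was -1.93 without replicate 2 of the untreated group. PPH, a chlorophyll-degrading enzyme, was lower in ft by the same test (-0.41 ± 0.08), though not with the length trend removed (edgeR adjusted p = 0.00613) or without any one analysed ft library. The 4 that rose in tfl1 became 2 or 1 without any one of the 4 analysed tfl1 libraries and 1 with all 18 libraries, while 7 rose in the wild type and 3 in ft with all 18. The 5 rises in ft were 3 without replicate 3 of untreated ft, and the 2 falls were 1 without any one analysed ft library.

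Untreated tfl1 against the untreated wild type gave 22 SA pathway genes higher and 2 lower of 48, and 15 senescence genes higher and 0 lower of 29, beside 11.8% and 12.7% of all genes (24.5% in either direction). The 0 comes from edgeR's test, was also 0 by DESeq2 and with the 17 and the 18 libraries, and 1 gene was lower at an unadjusted p under 0.05. With all 18 libraries 4 SA pathway genes and 7 senescence genes were higher, and with 17 libraries 17 and 16. Leaving out replicate 3 of the untreated wild type gave 10 and 7, replicate 1 of untreated tfl1 14 and 9, and replicate 3 of untreated tfl1 14 and 7. Untreated ft gave 9 higher and 1 lower of the SA pathway and 5 and 1 of senescence, beside 20.6% and 19.3% of all genes (39.9% in either direction), with 0 higher in either list by edgeR when all 18 libraries were fitted (11 and 4 at an unadjusted p under 0.05), and 15 and 6 by DESeq2 in the 12. The 9 SA pathway genes were 5 without replicate 2 of untreated ft.

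**Figure D4:**
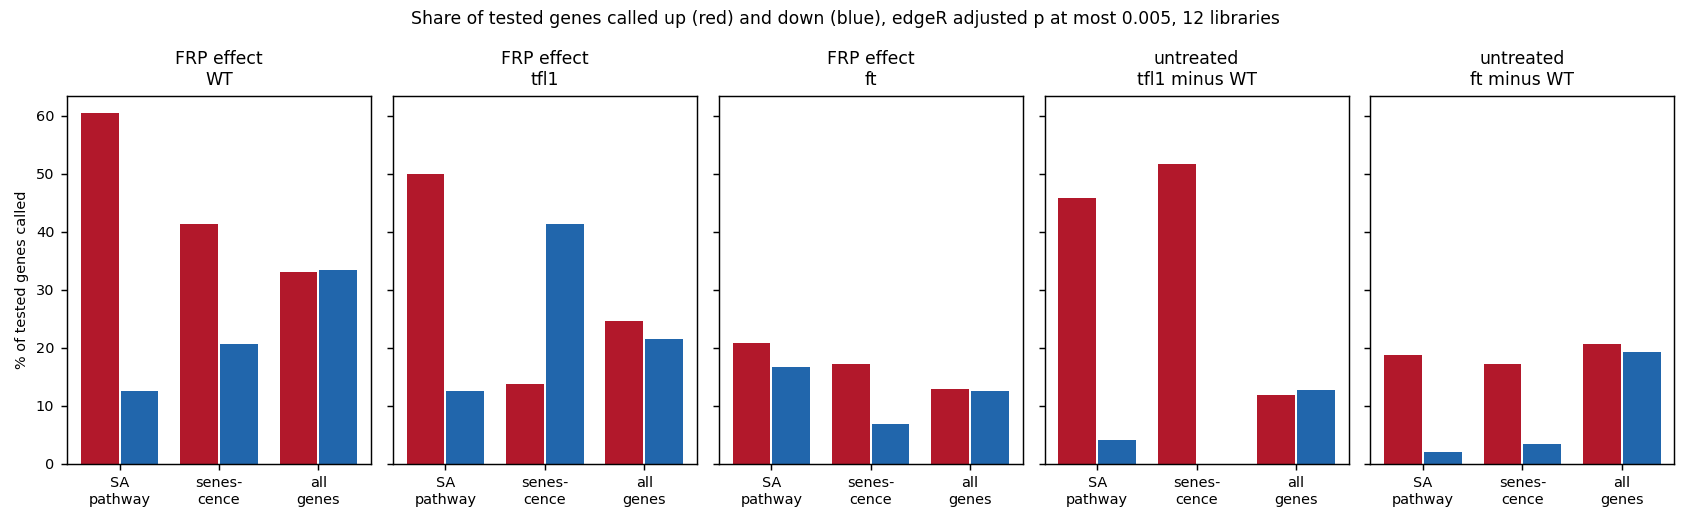
Share (percent) of tested genes called higher (red) and lower (blue) at an edgeR adjusted p of at most 0.005 for the SA pathway (48), senescence (29) and all genes (21277), in 5 comparisons. In untreated tfl1 no senescence gene was called lower, and 11.8% of all genes were called higher.

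The difference between genotypes in the response to FRP was tested as an interaction. The wild-type response exceeded that of ft for 23 of the 48 SA pathway genes and fell short for 3 (29.2% and 29.2% of all genes, 58.5% in either direction). That of tfl1 exceeded ft for 18 and fell short for 1 (20.5% and 19.8%, together 40.3%). Against the wild type, tfl1 was above for 4 and below for 15 (13.9% and 13.9%, together 27.8%). For senescence the counts were 7 above and 4 below for the wild type against ft, 1 and 11 for tfl1 against ft, and 1 and 11 for tfl1 against the wild type. With all 18 libraries the SA pathway counts in either direction dropped from 26, 19 and 19 to 12, 9 and 6, and with 17 libraries they were 29, 19 and 20. Senescence counts in either direction went from 11, 12 and 12 to 4, 9 and 2. The tfl1 against ft count of 19 was 12 without replicate 1 of treated ft and 11 without replicate 1 of untreated tfl1. For senescence that count of 12 was 4 and 6 without replicates 2 and 3 of untreated ft, 7 without replicate 1 of treated ft, 6 without replicate 1 of untreated tfl1 and 7 without replicate 3 of treated tfl1. The senescence count of tfl1 against the wild type was 6 without replicate 3 of the untreated wild type, 6 without replicate 1 of treated tfl1 and 7 without replicate 3 of untreated tfl1, and that of the wild type against ft was 6 without replicate 3 of untreated ft.

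Jasmonate and ethylene defence, which SA often opposes, was followed in 9 other genes. Of these, 4 rose and 4 fell in the wild type, in tfl1 1 rose and 4 fell, and in ft 1 rose and 6 fell. Of all genes 66.3%, 46.1% and 25.4% were called in those genotypes. VSP1 and VSP2, storage proteins induced by jasmonate, fell in the wild type by 4.10 and 3.70 on the log2 scale (SE 0.23 and 0.20), VSP1 in tfl1 (-1.25 ± 0.21, edgeR adjusted p = 0.00032, and 0.0239 with 18 libraries) and VSP2 in ft (-2.35 ± 0.19). ORA59, an ethylene response factor, fell in tfl1 (-1.80 ± 0.12). PDF1.2A, a defensin, fell in ft (-4.61 ± 0.57), from 2.58 ± 0.420 to 0.0892 ± 0.0286 CPM, and rose in the wild type (1.99 ± 0.45, edgeR adjusted p = 0.0016, and 0.0543 with 18 libraries). PR3, a chitinase, rose in the wild type (2.28 ± 0.11) and in ft (0.59 ± 0.09, edgeR adjusted p = 0.000447, and 0.0964 with 18 libraries).

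PR1, PR2 and EDS1 have near copies next to or near them in the genome, on the same strand. The authors counted only reads above a minimum mapping quality. Whether reads of one copy were placed on another was not tested. PRB1 (AT2G14580), a basic relative of PR1, fell in the wild type (-0.38 on the log2 scale) and in tfl1 (-0.89) and rose in ft (0.38) by the same test. BG3 (AT3G57240), a glucanase like PR2, rose in the wild type (2.04), fell in tfl1 (-2.31) and was at -0.77 in ft with an edgeR adjusted p of 0.069, and was higher in untreated tfl1 than in the untreated wild type by 2.90. BG1 (AT3G57270) did not pass the filter on low counts. AT3G48080, the near copy of EDS1, rose in the wild type (2.46) and tfl1 (1.84) and was at 0.47 in ft (edgeR adjusted p = 0.026), in the same order as EDS1.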

How the data were processed

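RNA-seq of shoot apices gave 18 single-end libraries of 3 genotypes without or with 24 h of FRP. The deposited values are raw read counts per gene, which the authors made by trimming with Trimmomatic, aligning to TAIR10 with STAR 2.5.3a and counting on Araport11 genes with HTSeq 0.7.2 without regard to strand. Reads that HTSeq did not place on one gene, 7.98 to 10.9% per library, were left out. Groups and replicate numbers are those of the labels. The methods call the replicates biological and do not say whether genotypes were grown or sequenced together.

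A gene was kept if 2 or more libraries had 10 or more counts, 21277 in the 12 libraries labelled as analysed for differential expression and 21442 in all 18. After TMM scaling, one model of the 6 conditions was fitted with edgeR 4.0.16 (limma 3.58.1, R 4.3.3), tested with its quasi-likelihood test, with Benjamini-Hochberg adjustment over all genes and a threshold of 0.005. Tables and figures were made with Python 3.11.15, pandas 2.3.3 and matplotlib 3.10.9. Intervals of count ratios are exact conditional binomial ones at 95% and cover counting error only. On simulated counts for FRP in the wild type with 200 genes changed by 2-fold, 180 were recovered in 12 libraries and 142 in 18. These counts were drawn for all genes at the common coefficient of variation of each set, 0.074 and 0.161. They held no outlying library and no length trend, so the recovered numbers do not say which fit is better.

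The members and the gene lists were chosen with earlier results of these data known. Named genes were, for each list and each FRP effect, the 2 largest rises and 2 largest falls past the threshold that averaged 20 or more counts and whose 3 treated and 3 untreated libraries of that genotype did not overlap, plus the 5 genes ranked most like PR1 (log2 CPM, prior count 2) and 4 near copies. Gene positions and promoters came from RefSeq TAIR10.1, whose nuclear chromosomes are those of TAIR10. Alternatives were all 18 libraries, 17 without replicate 1 of the untreated wild type, 18 with the replicate number as a block, each of the 12 left out in turn, DESeq2 1.42.0, DESeq2's size factors in edgeR, no count filter, and removal of a trend on transcript length (5 degrees of freedom). Protein sequences and the ChIP-seq data of the study were not used here.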

Additional observations from a re-analysis of the deposited data

Results flagged for a closer look

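The response to FRP of the 34 named genes of the pathway lists was compared between genotypes by edgeR's test of the difference, which passed an adjusted p of 0.005 in 51 cases over the 3 pairs of genotypes. The genes were named for a large change in one genotype in these same libraries, which favours such a difference, and the pairs share libraries, so the cases describe these genes and are no independent evidence. Values are differences of log2 fold changes in the 12 libraries.

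Between the wild type and ft there were 21 (61.8% of the 34, beside 58.5% of all genes), of which 10 were also past the threshold with all 18 libraries, namely PDF1.2A, SAG14, ACD6, NAC016, WAK1, PAL1, TGA3, PCC1, SEN1 and RNS2. The values of WRKY40, CBP60G and SARD1 were not (adjusted p of 0.34, 0.438 and 0.117), and that of WRKY40 was -1.91 there. The wild-type response was above that of ft for the SA genes WRKY40 (3.94), CBP60G (3.64), SARD1 (3.57), ACD6 (3.37), ADR1 (2.61), WAK1 (2.22), PAL1 (1.64), TGA4 (0.86) and TGA3 (0.58), for the senescence genes SAG14 (4.02), NAC016 (3.23) and WRKY53 (2.26), and for PDF1.2A (6.60) and PR3 (1.68) of the jasmonate and ethylene list. It was below that of ft for PCC1 (-3.02), SEN1 (-2.56), XTH24 (-1.57), RNS2 (-1.05), VSP1 (-2.16), VSP2 (-1.35) and ORA59 (-0.99).

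Between tfl1 and ft there were 13 (38.2%, beside 40.3% of all genes), of which 5 were also past it with 18 libraries, namely WRKY62, TGA4, PAL4, XTH24 and ORA59. The tfl1 response was above that of ft for WRKY62 (3.60), ACD6 (2.40), SARD1 (1.47), ADR1 (1.32), CBP60G (1.31), WAK1 (1.30), TGA4 (1.17), PAL4 (0.93) and VSP2 (1.77), and below for XTH24 (-2.02), NAP (-1.43), ORA59 (-1.13) and RNS2 (-0.55).

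Between tfl1 and the wild type there were 17 (50% of the 34, beside 27.8% of all genes), of which 5 were also past it with 18 libraries, namely PCC1, VSP2, PAL4, PNP-A and PAL1. With 18 libraries the sign changed for WRKY40 (1.89), CBP60G (0.44) and GRX480 (0.02). The tfl1 response was above that of the wild type for PCC1 (3.56), VSP2 (3.12), VSP1 (2.85), PAL4 (1.58) and RNS2 (0.51), and below for PNP-A (-4.52), WRKY40 (-4.30), SAG14 (-3.18), CBP60G (-2.33), NAC016 (-2.18), SARD1 (-2.11), PR3 (-1.69), NAP (-1.66), PAL1 (-1.42), GRX480 (-1.36), ADR1 (-1.28) and WAK1 (-0.92).

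Among the members, 5 differences had every treated library above the untreated ones in one genotype and below them in the other, and these were not tested. Against ft, tfl1 differed by -2.49 for PR1, -2.41 for PR2 and -2.25 for PR5. Against the wild type, tfl1 differed by -4.76 for PR2 and -8.14 for SAG12, the latter a fitted value that rests on 1 and 0 counts per untreated wild-type library and gives no size.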

How the results depend on the processing

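Changes are given from the 12-library values, and the cause of each was not tested. With all 18 libraries the counts of SA pathway genes that rose and fell in ft went from 10 and 8 to 4 and 5, those higher and lower in untreated tfl1 from 22 and 2 to 4 and 1, and those in untreated ft from 9 and 1 to 0 and 0. Differences between genotypes in the FRP response, in either direction, went from 26 to 12 (wild type and ft), from 19 to 9 (tfl1 and ft) and from 19 to 6 (tfl1 and wild type). For senescence, rises went from 12 to 7 (wild type), 4 to 1 (tfl1) and 5 to 3 (ft), falls in ft from 2 to 1, higher genes in untreated tfl1 from 15 to 7, higher and lower genes in untreated ft from 5 and 1 to 0 and 0, and differences in the response from 11 to 4 (wild type and ft) and from 12 to 2 (tfl1 and wild type). The members' log2 values that changed sign, all small or resting on the untreated wild type, were untreated tfl1 against the wild type for EDS1 (0.17 to -0.38), and untreated ft against the wild type for PAD4 (0.08 to -0.25), PR2 (1.32 to -0.16) and WRKY70 (0.33 to -0.71). Of 52 named gene effects 12 lost the call with 18 libraries and none changed sign. With 17 libraries, lower SA pathway genes were 1 in untreated tfl1 and 0 in untreated ft, lower senescence genes in untreated ft were 2, and 1 of the 52 lost the call.

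Neither the labels nor the methods say whether same-numbered treated and untreated libraries belong together, and the main fit used no pairing. Deviations of such libraries from their condition means correlated at -0.17, -0.05 and 0.01 (wild type), 0.38, 0.37 and -0.01 (tfl1), and 0.19, 0.17 and -0.01 (ft) in replicates 1, 2 and 3. With a replicate block added to the fit of all 18 libraries, 19 SA pathway genes rose in the wild type, 4 rose and 5 fell in ft, 3 were higher and 1 lower in untreated tfl1, 0 and 0 in untreated ft, and differences in the response numbered 8 (wild type and ft), 6 (tfl1 and ft) and 4 (tfl1 and wild type). With that replicate block senescence rises numbered 7 (wild type), 1 (tfl1) and 3 (ft), with 1 fall in ft, 7 were higher in untreated tfl1, 0 and 0 were called in untreated ft, and differences in the response numbered 4, 6 and 2. The same members changed sign under the block, EDS1 at -0.38, PAD4 at -0.26, PR2 at -0.043 and WRKY70 at -0.63.

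Removing the length trend changed the sign of EDS1 in ft (-0.09 to 0.079), SAG13 in tfl1 (-0.09 to 0.13), ICS1 (0.09 to -0.044) and NIMIN1 (-0.17 to 0.029) in untreated tfl1, and PAD4 in untreated ft (0.08 to -0.21), gave 1 lower SA pathway gene in untreated tfl1 and 3 in untreated ft, 2 rises of senescence genes in tfl1, 1 fall in ft and 2 lower in untreated ft, and lost 3 of the 52 calls. DESeq2 gave 15 higher SA pathway genes and 2 lower senescence genes in untreated ft, its size factors 1 lower SA pathway gene in untreated tfl1, and the absence of a count filter 1 such gene, 18 higher SA pathway genes and 2 lower senescence genes in untreated ft. None of these 3 settings lost a call of the 52.

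Leaving out one library at a time, SA pathway rises ranged from 4 to 12 in ft and falls from 4 to 9 in ft and 4 to 10 in tfl1, higher genes from 10 to 28 in untreated tfl1 and 5 to 12 in untreated ft, lower genes from 1 to 2 in both, and differences between tfl1 and ft from 11 to 20. Senescence rises ranged from 1 to 4 in tfl1 and 3 to 6 in ft, falls in ft from 1 to 3, higher genes in untreated tfl1 from 7 to 17, lower genes in untreated ft from 0 to 3, and differences from 6 to 11 (wild type and ft), 4 to 15 (tfl1 and ft) and 6 to 11 (tfl1 and wild type). Members whose sign changed ranged from -0.32 (without replicate 3 of treated tfl1) to 0.14 (without replicate 1 of untreated tfl1) for SAG13 in tfl1, from -0.036 to 0.19 for PAD4 in untreated ft, from -0.184 (without replicate 3 of treated ft) to 0.0078 (without its replicate 1) for EDS1 in ft, from -0.049 (without replicate 2 of the untreated wild type) to 0.40 (without its replicate 3) for EDS1 in untreated tfl1, and from -0.10 (without replicate 3 of the treated wild type) to 0.98 (without its replicate 1) for ICS1 in the wild type. Counts of 1, 0 and 1 limit SAG12 in the untreated wild type.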
